A study of Caenorhabditis elegans with 33 samples.

Results

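Of 15366 annotated 21U piRNAs of Caenorhabditis elegans, 1397 leaned to adults: their level in wild type adults was more than 2-fold above that in wild type L4 larvae. A level is given in ppm, reads per 1000000 reads of all 21U piRNAs in the library. The choice kept the 2738 piRNAs with at least 2 reads per 1000000 small RNA reads (RPM) in wild type L4 larvae or in the mean of the 3 wild type adult libraries, added 10 to each level, and took those whose adult over L4 log2 ratio exceeded 1, which was 51% of the kept piRNAs. The members were thus chosen by their levels in the 4 wild type libraries. Among the other kept piRNAs, 753 leaned to L4 larvae by the same margin and 588 to neither stage.

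21U-RNAs are the piRNAs of C. elegans, small RNAs that begin with a uridine and are bound by the Piwi protein PRG-1 in the germline. Each is transcribed from its own small locus, most of them in clusters on chromosome IV, and the bound 21U-RNA directs PRG-1 to transcripts against which secondary siRNAs of the 22G class are then made. An L4 hermaphrodite makes sperm and an adult hermaphrodite makes oocytes, and 21U-RNAs of male and of female germlines are known to differ in part. ALG-1, ALG-2 and ALG-5 belong to the Argonaute branch best known for binding miRNAs, and so are not the usual partners of these piRNAs.

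Whole worms were grown at 20 °C and collected 68 h after synchronization of first-stage larvae as adults, or 49 h after it as L4 larvae. Mutant adults carried one of 3 alleles: alg-5(tm1163), alg-2(ok304) or alg-1(gk214). Tagged adults carried alg-1::HA::alg-1 with alg-1(gk214) (HA::ALG-1), alg-2::HA::alg-2 with alg-2(ok304) (HA::ALG-2), the chimera alg-1::HA::alg-2 with alg-1(gk214) (ALG-1::HA::ALG-2), or alg-5::3xHA::alg-5 with alg-5(tm1163) (HA::ALG-5), so each transgene stood in a mutant background; what drives it is not given in the sources used here. The L4 strains were alg-5(ram2), and GFP::3xFLAG::alg-5 at the alg-5 locus (GFP::ALG-5). Each of the 5 tagged strains gave an immunoprecipitate, with anti-HA or anti-GFP beads, and an input from the lysate. Wild type worms (N2) gave 3 adult libraries and 1 L4 library, and every other strain and fraction 1 library, so 18 libraries were compared. The labels tie no 2 libraries to 1 culture other than an immunoprecipitate to its strain's input, and p-values measure the spread between libraries of mixed genotype, part of which may be technical.

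Depth differed between experiments, which are numbered 1 to 4 in the headers of the deposited columns. Total reads, recovered from the step between frequent low RPM values, were lowest in wild type adult 2, with 1622092, and highest in the GFP::ALG-5 L4 input, with 24518714. The HA::ALG-5 input also holds values below 1 such step, so its reads rest on its frequent low values, and 99.2% of its values were whole multiples of that step. 1 read equalled 26.3 ppm in wild type adult 2, 16.2 in alg-1(gk214) and 22.0 in alg-2(ok304), the 3 libraries of experiment 2, and 2.41 to 4.83 in the 7 other adult libraries without an immunoprecipitation. It equalled 3.80 to 5.56 ppm in the L4 libraries and 100.4 in the GFP::ALG-5 immunoprecipitate. All L4 libraries, and no adult library, are of experiment 4, so stage and experiment cannot be told apart. In whole worms, fewer germ cells of a kind and less piRNA per cell cannot be told apart either.

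The adult-leaning piRNAs made up a larger share of the 21U pool in every adult library than in any L4 library. They held 59.1%, 64.1% and 59.7% of all 21U reads in wild type adults 1 to 3 and 12.2% in wild type L4 larvae, the libraries that chose them. In the libraries that did not, the share was 39.5% in alg-1(gk214), 50.1% in alg-2(ok304) and 60.9% in alg-5(tm1163) adults, and 58.8% in the HA::ALG-1 input, 53.3% in the HA::ALG-2 input, 52.5% in the ALG-1::HA::ALG-2 input and 53.5% in the HA::ALG-5 input, all from adults. It was 13.2% in alg-5(ram2) L4 larvae and 12.2% in the GFP::ALG-5 L4 input. The lowest adult, alg-1(gk214), was therefore well above the highest L4 library, and no counting interval of an adult came near one of an L4 library (Wilson 95%, 39.1% to 39.9% in alg-1(gk214) and 13.0% to 13.4% in alg-5(ram2)). As RPM the summed level of the members was 7932 to 19948 in the 7 adults and 1079.9 and 1313 in the 2 L4 libraries outside the choice, while all 21U piRNAs together summed to 20085 to 32742 RPM in those adults and to 8179 and 10744 RPM in those L4 libraries.

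**Figure D1:**
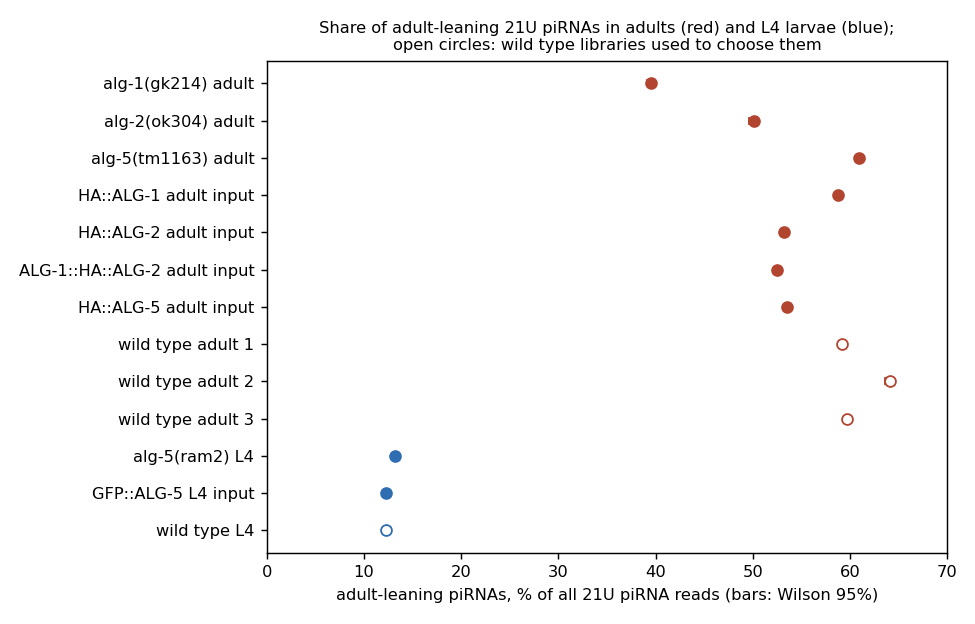
Share of all 21U piRNA reads held by the 1397 adult-leaning piRNAs (horizontal axis, %), one row per library without an immunoprecipitation, adults in red above L4 larvae in blue, bars showing Wilson 95% intervals. The adults lie between 39.5% in alg-1(gk214) and 64.1% in wild type adult 2, and the L4 libraries between 12.2% and 13.2%.

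By the values that chose them, the members had a mean wild type adult level of 57.2 to 14609 ppm, with a median of 179, and a wild type L4 level of 0 to 3269, with a median of 28.2. The log2 ratio ran from 1.00 to 6.16 with a median of 2.33. A small number carried much of the signal: the top 10 members held 12.1% of the summed adult level of all members, the top 100 held 45.2% and the top 500 held 80.4%. Of the 1397, 126 averaged over 1000 ppm and 331 under 100 in wild type adults. Most members, 1246, passed the 2 RPM minimum through the adults only, and 151 passed it in L4 larvae as well. The 3 wild type adults agreed within 2-fold of each other for 533 members, and wild type adult 2, the shallowest, was the lowest of them for 788 and the highest for 360.

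The 8 most abundant members differed in their spread over the wild type adults. 21ur-5107 had the highest mean, at 4953, 33959 and 4915 ppm in wild type adults 1, 2 and 3, and 1497 in wild type L4 larvae. Its mean rested on adult 2. 21ur-1684 had 6991, 16585 and 5928 in the same adults and 1957 in L4 larvae, and 21ur-1689 had 7112, 11039 and 4210.4 in adults and 1497 in L4 larvae. 21ur-1934 had 3727, 11039 and 2983 in adults and 456 in L4 larvae, again with adult 2 highest. 21ur-3967 stood at 5196, 8648 and 4616 in adults and 783 in L4 larvae. 21ur-621 stood at 4630.3, 10750.3 and 2369 in adults and 2821 in L4 larvae, so that wild type adult 3 was below L4. In 21ur-6202 and 21ur-3502 adult 2 was not the highest: 21ur-6202 had 7610.3, 6282 and 4153 in adults and 1126 in L4 larvae, and 21ur-3502 had 5784, 4889 and 9125 in adults and 3269 in L4 larvae. All 3 libraries of experiment 2 were high for 21ur-5107, which had 20041 in alg-1(gk214) and 20029 in alg-2(ok304), and 2999 to 4969 in the 5 other adult libraries outside the choice.

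Near the limit of the choice, the 3 members just inside had log2 ratios of 1.00 to 1.01 and the 3 piRNAs just outside 1.00. 21ur-3292, just inside, had 1937, 158 and 1040.02 ppm in wild type adults 1 to 3 and 517 in wild type L4 larvae. 21ur-4864 had 1469.5, 552 and 1922 in adults and 650 in L4 larvae, and 21ur-10308 had 431, 894 and 141 in adults and 238 in L4 larvae. For both 21ur-3292 and 21ur-4864, adult 2 was the low library. Just outside, 21ur-5742 had 1166, 973 and 1204 in adults and 553 in L4 larvae, 21ur-3215 had 1195, 2050.2 and 748 in adults and 662 in L4 larvae, and 21ur-7530 had 139.7, 52.6 and 127 in adults and 48.4 in L4 larvae. 

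The question of whether the lean holds beyond wild type was asked in 9 libraries that took no part in the choice: the 3 mutant adults and 4 adult inputs against alg-5(ram2) L4 larvae and the GFP::ALG-5 L4 input. Each of them shares its experiment with a wild type library that did take part. The counts may thus still depend on the choice, which was not tested. The mean of log2(level + 10) was higher in adults for 1383 of the 1397 members and lower for 14. Of the members, 1013 (72.5%) were higher in adults at an adjusted p under 0.05 and 0 were lower (limma, Benjamini-Hochberg over 2738 piRNAs). Over all kept piRNAs 40% were called higher in adults and 20% lower. Every one of the 7 adults lay above both L4 libraries for 861 members (61.6%), against 34.6% of all kept piRNAs. The median difference was 2.09 on the log2 scale for the members and 0.99 for all kept piRNAs. Of the 753 piRNAs that leaned to L4, 0 were called higher in adults and 535 lower; of the 588 that leaned to neither stage, 83 were higher and 13 lower. No member had an unadjusted p under 0.05 with a lower adult mean, and edgeR's quasi-likelihood test on the recovered reads called 885 members higher and 0 lower. The edgeR calls were counted for the members only, without a share over all kept piRNAs.

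The scaling changed these counts. On deposited RPM, without scaling to the 21U total, 56.5% of all kept piRNAs were called higher in adults and 5.22% lower, with a median log2 difference of 1.27; the members then gave 1254 higher and 0 lower, with a median of 1.87. The count of members called higher depended on single libraries and experiments: it was 577 without the GFP::ALG-5 L4 input, 611 without alg-5(ram2) L4 larvae, 623 without the 3 adult inputs of experiment 1, and 1238 without the alg-1(gk214) and alg-2(ok304) adults of experiment 2. With the 3 mutant adults against alg-5(ram2) only, limma called 0 members, 409 had an unadjusted p under 0.05, and all 409 of these were higher in adults. The counts with libraries or experiments left out cover the members only, so whether all kept piRNAs moved alike cannot be read from them. Genotype and library kind differ within each arm.

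**Figure D2:**
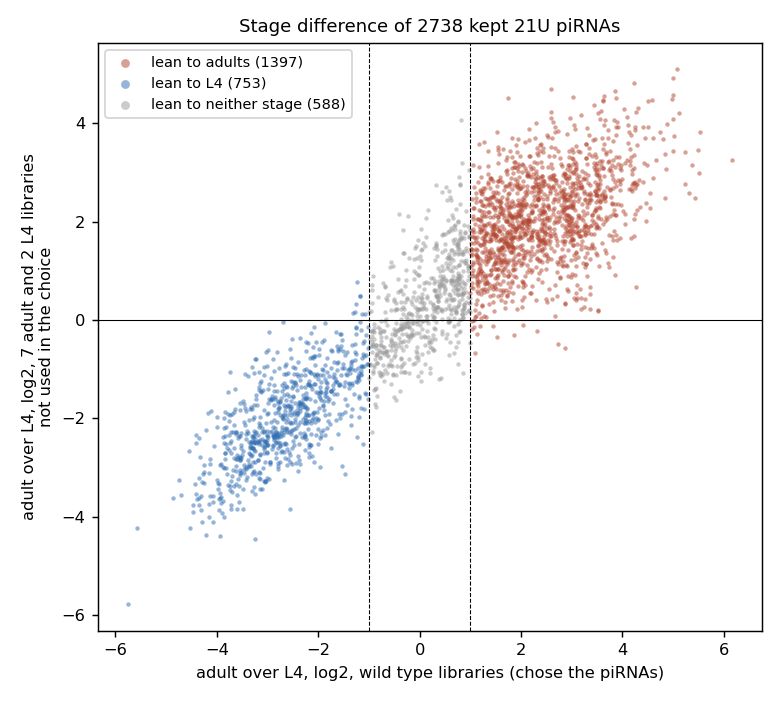
Adult over L4 difference, log2(level + 10), of the 2738 kept piRNAs in the wild type libraries that chose them (horizontal) and in the 7 adult and 2 L4 libraries that did not (vertical); dashed lines mark the limits of the choice. Of the adult-leaning piRNAs (red), 1383 of 1397 lie above 0 on the vertical axis.

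Members with a larger lean in wild type had a larger difference in the other libraries. The 537 members with a wild type log2 ratio of 1 to 2 had a median difference of 1.69 in the other libraries, and 60.0% were called higher. For the 460 members between 2 and 3 the median was 2.13 and 76.1% were called, and for the 319 between 3 and 4 it was 2.50 and 81.8%. Of the 81 members above 4, 80 were called higher, with a median of 3.19. Over all kept piRNAs 40% were called higher in adults. The tiers were cut on the values of the choice, whose L4 library shares its experiment with both other L4 libraries. Part of the rise may thus follow from the choice, which was not tested. Across the 1397 members the 2 differences had a Pearson correlation of 0.46, given as a description, since the members share their libraries and the choice cut the range.

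The 8 most abundant members differed in how far the lean held. In the libraries outside the choice, 21ur-3967 had 3069, 4948 and 6428 ppm as lowest, median and highest of the 7 adults, and 883 in alg-5(ram2) and 1006 in the GFP::ALG-5 input. The groups did not overlap, and the difference was 2.29 ± 0.36 on the log2 scale (SE, limma adjusted p = 0.000281). 21ur-1934 had 2539, 3458 and 6515 in adults, and 967 and 774 in the same L4 libraries, a difference of 2.10 ± 0.38 (adjusted p = 0.000661). 21ur-1689 had 3543, 5968 and 7549.8 in adults, and 1634 and 1739 in L4 larvae, a difference of 1.74 ± 0.36 (adjusted p = 0.00136). For both piRNAs all 7 adults were above both L4 libraries. 21ur-6202 had 3078, 5253 and 7302 in adults, and 2262 and 1617 in L4 larvae, with a difference of 1.40 ± 0.37 (adjusted p = 0.0058). 21ur-1684 had 4758, 6886 and 13558 in adults, and 3834 and 2391 in L4 larvae, with a difference of 1.24 ± 0.39 (adjusted p = 0.014). Neither overlapped, but without the GFP::ALG-5 L4 input the adjusted p was 0.0967 for 21ur-6202 and 0.196 for 21ur-1684, and without experiment 1 it was 0.0528 for 21ur-6202. 21ur-1684 was also not called with no minimum (adjusted p = 0.0746) or with edgeR (adjusted p = 0.110). 21ur-5107 had 2999, 4493 and 20041 in adults, and 1439 and 1856 in L4 larvae, a difference of 1.91 ± 0.67 (adjusted p = 0.0241). 21ur-3502 had 4504, 6656 and 10075 in adults, and 2801 and 3621 in L4 larvae, a difference of 1.10 ± 0.36 (adjusted p = 0.0174). Leaving out either L4 library ended both calls, with adjusted p of 0.102 and 0.161 for 21ur-5107 and 0.0699 and 0.167 for 21ur-3502 without the GFP::ALG-5 input and without alg-5(ram2). 21ur-3502 was also not called with no minimum (limma adjusted p = 0.105), with input libraries only (0.0586) or with edgeR (0.139). 21ur-621 did not show the lean: it had 2009, 3931 and 8342 in adults, and 3823 and 3378 in L4 larvae, the groups overlapped, and the difference was -0.01 ± 0.46 (adjusted p = 0.986). On deposited RPM, which also counts the larger 21U total of adults, its difference was 1.43.

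The 6 members with the largest difference outside the choice, picked by that difference, were each at 0 in at least 1 of the 2 other L4 libraries and had at most 44.4 ppm in any L4 library. 21ur-226 had 367, 550.2 and 1010.3 ppm as lowest, median and highest of the 7 adults, and 0 in alg-5(ram2) and 19.0 in the GFP::ALG-5 input; the difference was 5.09 ± 0.53 on the log2 scale (SE, adjusted p = 2.82e-05). 21ur-1800 had 113, 419 and 928 in adults, and 0 and 7.59 in L4 larvae (4.92 ± 0.63, adjusted p = 0.000108). 21ur-4408 had 132, 259 and 579 in adults and was at 0 in both L4 libraries (4.82 ± 0.55, adjusted p = 4.49e-05). In each of the 3 the lowest adult was above both L4 libraries. 21ur-3494 had 148, 308 and 366 in adults, and 0 and 3.80 in L4 larvae (4.68 ± 0.48, adjusted p = 2.82e-05). 21ur-5546 had 146, 225 and 558 in adults and was at 0 in both L4 libraries (4.65 ± 0.53, adjusted p = 4.49e-05). 21ur-668 had 227, 613 and 865 in adults, and 33.3 and 0 in L4 larvae (4.57 ± 0.63, adjusted p = 0.00016). Again no adult overlapped an L4 library. Where an L4 value is 0, the size of these differences depends on the added 10; a count of 0 allows up to 16.7 ppm in alg-5(ram2), 11.4 in the GFP::ALG-5 input and 12.1 in wild type L4 larvae (3 reads each, counting error only).

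**Figure D3:**
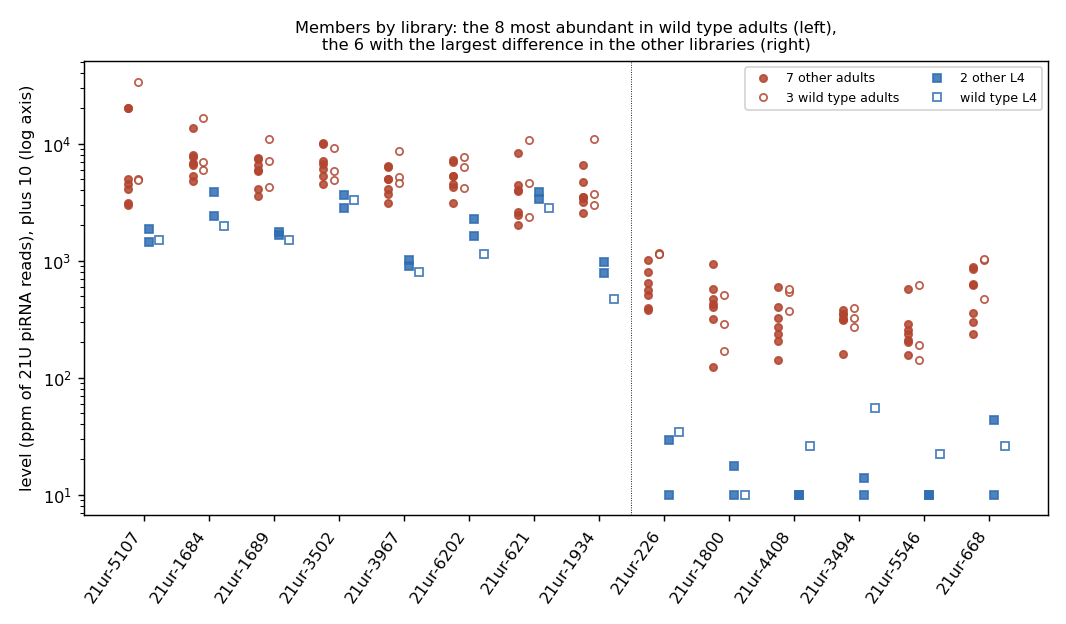
Levels plus 10 (log axis) of 14 adult-leaning piRNAs by library, adults as red circles left of L4 larvae as blue squares, with open symbols for the wild type libraries that chose them. At left are the 8 most abundant, where 21ur-621 shows overlapping stages, and at right the 6 with the largest difference outside the choice, with L4 levels of 0 to 44.4 ppm before the 10 was added.

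At the other end, the 4 members with the lowest difference outside the choice gave no call. 21ur-572 had 97.2, 351 and 589 ppm as lowest, median and highest of the 7 adults, and 611 and 410 in alg-5(ram2) and the GFP::ALG-5 input, a difference of -0.68 ± 0.64 (SE, adjusted p = 0.362). Its wild type L4 level was 157, below both other L4 libraries. 21ur-5738 had 0, 58.5 and 81.5 in adults, and 88.9 and 45.6 in L4 larvae (-0.57 ± 0.79, adjusted p = 0.533), and 21ur-6094 had 0, 59.3 and 127 in adults, and 77.8 and 75.9 in L4 larvae (-0.49 ± 0.79, adjusted p = 0.593). 21ur-2644 had 48.3, 97.2 and 129 in adults, and 117 and 114 in L4 larvae (-0.34 ± 0.49, adjusted p = 0.557). In all 4 the stages overlapped, and in all 4 wild type L4 was the lowest of the 3 L4 libraries, with 0 for 21ur-5738, 4.04 for 21ur-6094 and 28.2 for 21ur-2644. These 3 rested on few reads, at most 30 in any of the 3 L4 libraries. The values of 21ur-5738 were not whole in some libraries, such as 29.5 reads in wild type adult 1. How the authors assigned reads that match several loci is not given in the sources used here.

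Some members were absent from L4 libraries. 229 members were at 0 in wild type L4 larvae, 161 in both other L4 libraries and 88 in all 3. The choice used the wild type L4 level, so a kept piRNA at 0 there was always a member. The lowest wild type L4 level was 28.2 ppm among piRNAs that leaned to neither stage and 153 among those that leaned to L4. For the 2 other L4 libraries, piRNAs at 0 were counted among the members only. In adults 1205 members were above 0 in all 10 libraries, and 192 were at 0 in at least 1, among them 56 in wild type adult 2. Of the 88, 21ur-4659 had the highest wild type adult mean, at 308, 78.9 and 533 ppm in adults 1 to 3, and 64.8, 262 and 544 as lowest, median and highest of the other adults. 21ur-6546 had 193, 263 and 315 in wild type adults and 44.0, 157 and 374 in the others, and 21ur-1375 had 325, 210.3 and 168 in wild type adults and 24.1, 134 and 299 in the others. Since these 3 were picked for their 0 in every L4 library, their stage difference is given no test.

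In alg-1(gk214) and alg-2(ok304) adults, the adult-leaning piRNAs held a smaller share of the 21U pool than in the wild type adults, and the L4-leaning ones a larger share. Each mutant is 1 library, so these are values without a test, and the wild type adults had chosen the members. In alg-1(gk214) adults 26 members were at least 2-fold higher and 658 at least 2-fold lower than the wild type mean, with a median log2 ratio of -0.94; of all kept piRNAs 19.8% were higher and 31.3% lower. Against wild type adult 2, of the same experiment, 106 were higher and 448 lower, with a median of -0.59 (all kept, 27.2% and 20.6%). In alg-2(ok304) adults 23 members were higher and 542 lower than the wild type mean, with a median of -0.70 (all kept, 14.4% and 27%). Against wild type adult 2 the counts were 112 and 311, with a median of -0.24 (all kept, 21.7% and 14.8%). The L4-leaning piRNAs held 25.01% of 21U reads in alg-1(gk214) adults and 18.2% in alg-2(ok304) adults, against 10.1%, 9.10% and 8.12% in wild type adults 1 to 3. All 4 adult inputs also lay outside the wild type range, on the same side. HA::ALG-1 did so narrowly, with 10.14% for the L4-leaning piRNAs and 58.8% for the members, against 10.08% and 59.1% in wild type adult 1. HA::ALG-2 had 13.4% and 53.3%, ALG-1::HA::ALG-2 had 15.1% and 52.5%, and HA::ALG-5 had 13.0% and 53.5%. The member share of alg-2(ok304), 50.1%, was near those of the last 3, and that of alg-1(gk214), 39.5%, was the lowest of all adults.

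The alg-5(tm1163) adult was close to the wild type adult of its own experiment in these piRNAs. Of the members 67 were at least 2-fold higher and 88 at least 2-fold lower than the wild type mean, with a median log2 ratio of 0.25 (all kept, 3.32% and 8.22%). Against wild type adult 3, of the same experiment, 6 were higher and 9 lower, with a median of 0.04 (all kept, 0.548% and 2.63%). The log2 levels of the 2 libraries had a Pearson correlation of 0.97 across the members. The wild type adults, each of a different experiment, had correlations of only 0.63 to 0.86 with each other. Against the wild type mean without adult 3, 328 members were at least 2-fold higher in alg-5(tm1163) and 135 lower. In alg-5(ram2) L4 larvae 222 members were higher and 250 lower than in wild type L4 larvae, with a median of 0 (all kept, 9.5% and 16.6%). Most members are near the level of a few reads in L4 larvae, where the median was 27.8 ppm in alg-5(ram2) and 28.2 in wild type.

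Comparing mutants with each other leaves out the libraries that chose the members. In alg-1(gk214) against alg-5(tm1163) adults 82 members were at least 2-fold higher and 778 lower, with a median log2 ratio of -1.21 (all kept, 24.3% and 36.9%), and in alg-2(ok304) against alg-5(tm1163) adults 108 were higher and 674 lower, with a median of -0.93 (all kept, 21.7% and 33.8%). These pairs lie in different experiments and share a library. Each of these experiments also held a wild type adult that took part in the choice. Across the members, the Pearson correlation with that wild type adult was 0.97 for alg-5(tm1163), 0.80 for alg-1(gk214) and 0.82 for alg-2(ok304). The counts may thus still depend on the choice, which was not tested. In alg-1(gk214) against alg-2(ok304) adults, both of experiment 2, 189 were higher and 287 lower, with a median of -0.29 (all kept, 17.8% and 15.9%). Of the 7 adults outside the choice, alg-1(gk214) was the lowest for 581 members and alg-2(ok304) for 347, and the level was at or below the higher L4 library for 297 and 269 members. In the 5 other adults this second count was 28 to 122. Both counts were made for the members only, with no share over all kept piRNAs, so they show no trait particular to the members. Total reads were 3073089 in alg-1(gk214) and 1982430 in alg-2(ok304), and 8646050 to 11614968 in those 5, and the part of depth in these counts was not tested. Of the tagged strains of experiment 1, the member share was 58.8% in HA::ALG-1 and 52.5% in ALG-1::HA::ALG-2, both with alg-1(gk214), and 53.3% in HA::ALG-2 with alg-2(ok304), against 59.1% in wild type adult 1.

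**Figure D4:**
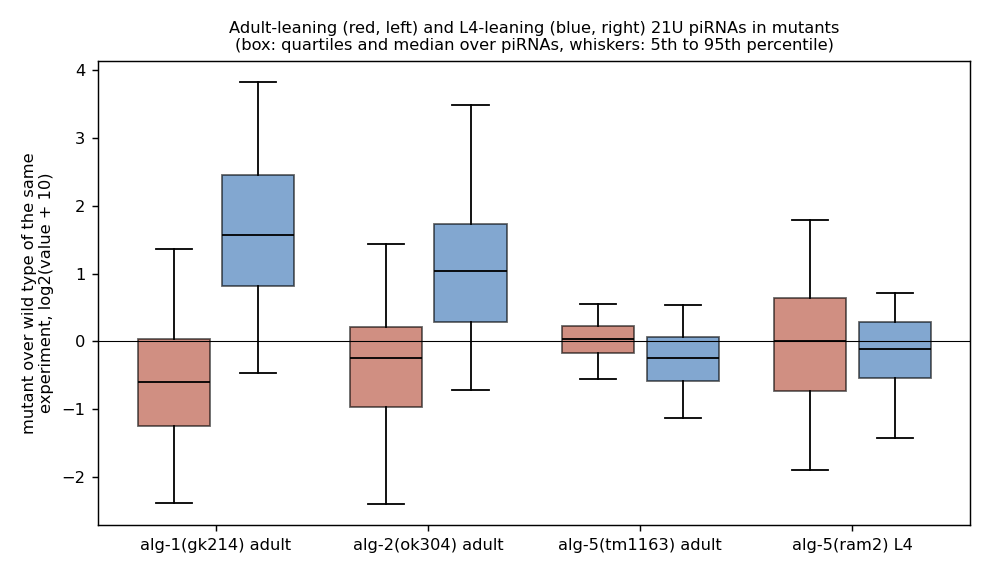
Mutant over wild type of the same experiment, log2(level + 10), for the 1397 adult-leaning (red, left) and 753 L4-leaning (blue, right) piRNAs; boxes give quartiles and median over piRNAs and whiskers the 5th to 95th percentile, with 1 library a mutant. The adult-leaning medians are -0.59 in alg-1(gk214), -0.24 in alg-2(ok304), 0.04 in alg-5(tm1163) and 0 in alg-5(ram2). Those of all kept piRNAs are 0, 0, -0.02 and -0.06 in the same sequence. The wild type libraries compared here also chose both sets, so the shifts may depend on the choice, which was not tested.

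Single members show the mutant values. 21ur-226 had 502 ppm in alg-1(gk214), 550.2 in alg-2(ok304) and 1010.3 in alg-5(tm1163) adults, and 1152, 1130.2 and 1127 in wild type adults 1 to 3. The 4 adult inputs lay below every wild type adult as well, at 634 for HA::ALG-1, 382 for HA::ALG-2, 788 for ALG-1::HA::ALG-2 and 367 for HA::ALG-5, as did all 3 mutants. 21ur-668 had 227, 286 and 865 in the same mutants, and 455, 999 and 1023 in wild type adults, and 21ur-4408 had 194, 132 and 579 in the mutants, and 364, 525.7 and 557 in wild type adults. 21ur-3494 did not follow them, at 308, 308 and 300.3 in the mutants and 311, 263 and 382 in wild type adults. 21ur-6546 had 48.6, 44.0 and 374 in the mutants and 193, 263 and 315 in wild type adults. The first 2 mutant values are 3 and 2 reads. The alg-1(gk214) and alg-2(ok304) values also rest on few reads for 21ur-668 (14 and 13), 21ur-4408 (12 and 6) and 21ur-3494 (19 and 14).

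In the immunoprecipitates the members' part of all small RNA reads was smaller than in the inputs for 4 constructs. Their summed level was 3274 RPM in the HA::ALG-1 immunoprecipitate against 17080.1 in its input (ratio 0.192), 2085 against 12417 for HA::ALG-2 (0.168), 3502 against 17032 for ALG-1::HA::ALG-2 (0.206) and 369 against 1313 for GFP::ALG-5 (0.281). For HA::ALG-5 it was 12155 in the immunoprecipitate and 12385 in the input (0.981). The ratio of all 21U piRNAs was close to that of the members, at 0.193, 0.168, 0.206 and 0.222 for the first 4 and 0.911 for HA::ALG-5. Within the 21U pool the members held 58.4% in the HA::ALG-1 immunoprecipitate and 58.8% in its input, 53.4% and 53.3% for HA::ALG-2, 52.3% and 52.5% for ALG-1::HA::ALG-2, 57.6% and 53.5% for HA::ALG-5, and 15.5% and 12.2% for GFP::ALG-5. The first 3 pairs differed by less than 0.5 percentage points, while the members' share was higher in both ALG-5 immunoprecipitates than in their inputs. For HA::ALG-5, 323 members were at least 2-fold higher and 114 lower, with a median log2 ratio of 0.17 (all kept, 17.2%, 15.9% and -0.04). For GFP::ALG-5, 243 were higher and 627 lower, with a median of -0.49 (all kept, 16.7%, 42.8% and -0.50). The HA::ALG-5 input share lay below those of wild type adult 3, 59.7%, and alg-5(tm1163), 60.9%, of the same experiment. The GFP::ALG-5 immunoprecipitate held 9965 piRNA reads in all, and its interval of 14.8% to 16.2% did not reach that of its input, 12.1% to 12.3% (Wilson 95%). For HA::ALG-5 the intervals, 57.2% to 58.1% and 53.3% to 53.7%, did not meet either; these cover counting error only, with 1 library each.

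**Figure D5:**
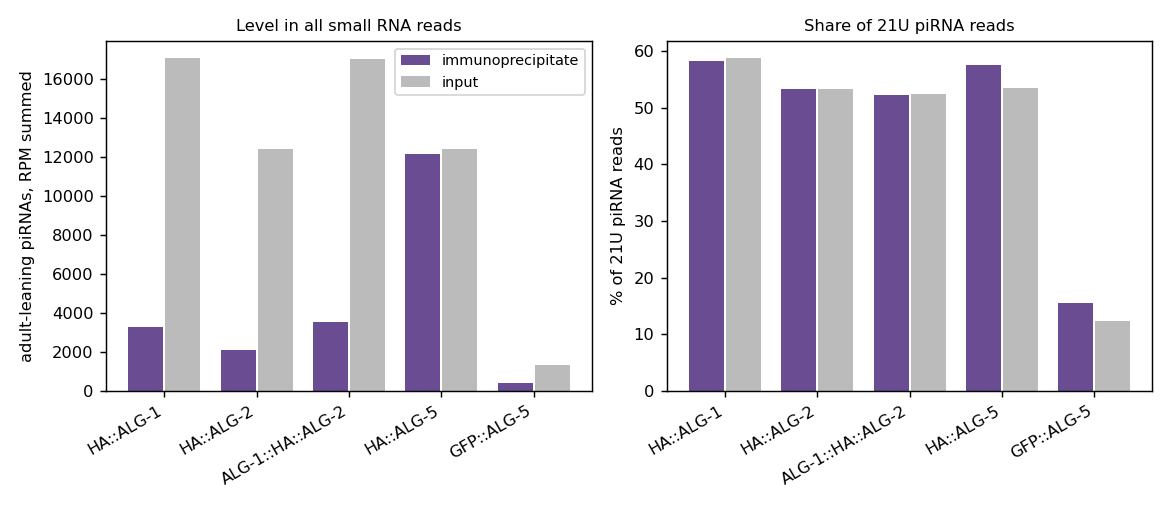
Adult-leaning piRNAs in each immunoprecipitate (purple, left) and its input (grey, right): summed RPM in the left panel and share of 21U piRNA reads (%) in the right panel, 1 library a bar. The RPM is 0.168 to 0.281 of the input in 4 constructs and is 0.981 of it for HA::ALG-5, while the share of 21U reads is higher in the immunoprecipitate for HA::ALG-5 (57.6% and 53.5%) and GFP::ALG-5 (15.5% and 12.2%).

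Scaled to the 21U pool, no member was called between immunoprecipitate and input over the 5 constructs (limma with the construct as a block, 0 of 2738 kept piRNAs, 0%). At an unadjusted p under 0.05, 39 members were higher in the immunoprecipitates and 72 lower, that is 2.79% and 5.15%, against 2.15% and 6.43% of all kept piRNAs. edgeR's quasi-likelihood test called 5 members lower and 0 higher, and 9 of the 2738 kept piRNAs in either direction. Without the GFP::ALG-5 pair, limma called 1 member, 21ur-1762, lower (0.073% of all kept piRNAs were called in either direction). On deposited RPM, 976 members were called lower and 0 higher, with 77.2% of all kept piRNAs lower and a median log2 difference of -0.99 for the members and -1.06 for all kept. Across the members, log2 levels in immunoprecipitate and input had a Pearson correlation of 0.77 to 0.90 for the adult constructs and 0.55 for GFP::ALG-5, whose immunoprecipitate had 978 members at 0.

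The 4 members with the lowest immunoprecipitate over input difference were low in the first 3 HA immunoprecipitates and nearer their input for HA::ALG-5. 21ur-1800 had 16.0, 42.0, 0, 498 and 0 ppm in the immunoprecipitates, always listed as HA::ALG-1, HA::ALG-2, chimeric ALG-1::HA::ALG-2, HA::ALG-5 and GFP::ALG-5, and 391, 928, 419, 565 and 7.59 in the inputs in the same sequence. The difference was -2.91 ± 0.77 on the log2 scale (SE, limma adjusted p = 0.488, edgeR adjusted p = 0.00097). 21ur-1871 had 48.0, 20.99, 33.3, 353 and 0 in the immunoprecipitates, and 397, 628, 551, 367 and 26.6 in the inputs (-2.56 ± 0.61, limma adjusted p = 0.488, edgeR adjusted p = 0.00392). 21ur-367 had 128, 20.99, 99.9, 394 and 0 in the immunoprecipitates, and 421, 667, 428, 768 and 60.7 in the inputs (-2.37 ± 0.52, limma adjusted p = 0.488, edgeR adjusted p = 0.0118). All 3 were lower than the input in all 4 adult constructs; in GFP::ALG-5 the inputs were below the level of 1 read of the immunoprecipitate, 100.4 ppm, so its 0 gives no direction. In 21ur-1847 the values were 16.0, 63.0, 0, 290.5 and 0 in the immunoprecipitates, and 219, 136, 142, 372 and 75.9 in the inputs (-2.30 ± 0.59, limma adjusted p = 0.488). In the first 3 immunoprecipitates these piRNAs had few reads: 1, 2 and 0 for 21ur-1800, and 3, 1 and 2 for 21ur-1871. There were 8, 1 and 6 for 21ur-367, and 1, 3 and 0 for 21ur-1847. The other 2 members called by edgeR, named after their values were seen, were 21ur-2864 and 21ur-1762. 21ur-1762 had 688, 609, 616, 975 and 502 in the immunoprecipitates and 2268, 1115, 1829, 5574 and 444 in the inputs, lower in 4 of 5 constructs. 21ur-2864 had 112, 84.0, 49.9, 415 and 201 in the immunoprecipitates and 522, 1349, 693, 343 and 79.7 in the inputs, lower in the first 3 constructs and higher in both ALG-5 constructs, where the GFP::ALG-5 value of 201 is 2 reads.

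The 4 members with the highest difference did not pass either. 21ur-4157 had 320.0, 231, 249.7, 228 and 301 ppm in the immunoprecipitates, in the same sequence of constructs, and 125, 46.8, 160.1, 48.3 and 75.9 in the inputs, higher in 5 of 5 (1.58 ± 0.39, SE, limma adjusted p = 0.488). 21ur-10190 had 528, 546, 549, 872 and 201 in the immunoprecipitates, and 332, 331.5, 342, 174 and 22.8 in the inputs, also higher in 5 of 5, though the GFP::ALG-5 values of 301 and 201 are 3 and 2 reads (1.39 ± 0.42, limma adjusted p = 0.488). 21ur-10190 also leaned to adults outside the choice (4.44 ± 0.58, adjusted p = 0.000139), while 21ur-4157 was not called there (0.50 ± 0.59, adjusted p = 0.465). 21ur-4854 had 144, 273, 66.6, 124.5 and 401 in the immunoprecipitates, and 142, 125, 89.3, 53.1 and 0 in the inputs (1.43 ± 0.77, limma adjusted p = 0.561), where 401 is 4 reads. 21ur-2491 had 208, 252, 199.7, 208 and 0 in the immunoprecipitates, and 127, 105, 123, 0 and 0 in the inputs (1.39 ± 0.64, limma adjusted p = 0.547). Of the most abundant members, 21ur-5107 had 6016, 4996, 5992, 5271 and 4115 in the immunoprecipitates, and 4969, 3100.2, 4493, 2999 and 1856 in the inputs, higher in 5 of 5 (0.67 ± 0.15, limma adjusted p = 0.488). 21ur-3967 went the other way in 5 of 5, with 2704, 2183, 2247, 4980.4 and 702 in the immunoprecipitates, and 4948, 3069, 4086, 6428 and 1006 in the inputs (-0.62 ± 0.15, limma adjusted p = 0.488).

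Position was not used by the choice. By RefSeq's annotation of assembly WBcel235, 1396 of the 1397 members lie on chromosome IV and 21ur-9360 on chromosome III; of the 1341 other kept piRNAs 1338 lie on IV, as do 95.8% of all 15366 piRNAs. 34.9% of the members lie inside a protein-coding gene, against 35.9% of the other kept piRNAs. 44.4% of the members overlap another annotated piRNA, against 40.6% of the other kept piRNAs, which divide into 36.0% of those that lean to L4 and 46.4% of those that lean to neither stage. The counting of overlapping piRNAs could not be separated. When the kept piRNAs of chromosome IV were divided in order into 10 bins of equal number, the members made up 39.8%, 48.0%, 59.3%, 49.6%, 49.1%, 51.6%, 55.5%, 59.0%, 54.2% and 44.5% of the bins in order of position. The outermost bins had the lowest shares. The next kept piRNA after a member was a member in 52.7% of cases, against 49.3% after another piRNA, and the longest run of members was 23.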

How the data were processed

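RNA between 18 and 28 nt was cut from gels and treated with polyphosphatase or TAP to open 5′ ends for ligation, per the labels' protocols. The authors deposited RPM values, reads scaled to 1000000 per library, for 15366 21U piRNAs in 18 libraries; the aligner, build and assignment of multiple matches are not given in the sources used here. Within 0.02 of a read, 99.1% to 99.6% of the values of a library were whole multiples of 1 step, which gave the reads. Columns were scaled to a sum of 1000000. Stage, and immunoprecipitate against input, were tested on log2(level + 10) with limma 3.58.1 (mean-variance trend, Benjamini-Hochberg over all kept piRNAs, threshold 0.05). The alternative was edgeR 4.0.16 on recovered reads. The limma fits of both comparisons were tried on simulated data first, and the edgeR fits were not. Mutants were compared by 2-fold counts.

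Named piRNAs are the 8 members highest in wild type adults, the 6 with the largest called and the 4 with the lowest stage difference outside the choice, the 4 highest and 4 lowest immunoprecipitate over input differences with an input mean of at least 20, the 3 nearest the limit on each side, and the 3 highest of those at 0 in all L4 libraries. The members and lists were chosen with earlier results of these data known. Of the table's rows 15363 matched RefSeq (WBcel235), used for chromosome, order and overlap only. No paired replicate numbers exist. Alternatives varied the added value, the minimum, the scaling, the tool and the libraries. Without molecular identifiers, intervals and floors reflect only counting error.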

Additional observations from a re-analysis of the deposited data

Results flagged for a closer look

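Of 65 sets of 4 to 10 values examined, 12 held a value far from the others, where chance alone gives about 1 in 20. The sets share libraries, and some hold piRNAs named for their extreme differences. No excess over chance can thus be read from the 12. The immunoprecipitate over input ratio of the members' summed RPM was 0.981 for HA::ALG-5, apart from the other 4 constructs. Among levels in the 7 adults outside the choice, alg-2(ok304) was high for 21ur-1684 (13558 reads per 1000000 21U reads, or ppm) and 21ur-621 (8342), alg-5(tm1163) was high for 21ur-5546 (558), the HA::ALG-2 input was low for 21ur-3494 (148), and the HA::ALG-5 input was at 0 for 21ur-2491. Among immunoprecipitate over input log2 differences, HA::ALG-5 stood apart for 21ur-2491 (4.44) and 21ur-4659 (1.37). GFP::ALG-5 stood apart for 21ur-4854 (5.36), 21ur-6202 (-0.83), 21ur-3292 (-2.62) and 21ur-10308 (-4.35); its immunoprecipitate, where 1 read is 100.4 ppm, had 4, 9, 1 and 0 reads of these.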

How the results depend on the processing

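The number of members was 783 with a minimum of 5 RPM and 450 with 10 RPM. Their median share in the 7 adults outside the choice was 41.1% with 10 RPM and 69.2% when chosen on deposited RPM; in the 2 L4 libraries it was 11.7% with an added 50, 11.6% with 5 RPM, 10.2% with 10 RPM and 24.3% on deposited RPM. Members called higher in adults numbered 378 with 10 RPM, 0 with mutant libraries only, and 577 to 1238 leaving out a library or an experiment; 0 were called lower under every alternative. Members lower in immunoprecipitates numbered 976 on deposited RPM, 5 with edgeR, 1 with 4 adult constructs only, and 0 to 1 leaving out a construct. The 378 called higher in adults with 10 RPM were of 450 members, against 1013 of 1397 under the choice as given. Shares over all kept piRNAs, where counted, are given above.

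Against wild type, members 2-fold higher in alg-1(gk214) numbered 15 with an added 50, 5 on deposited RPM, 106 against the same experiment and 21 to 77 without a wild type adult. In alg-2(ok304), 8 were higher on deposited RPM, 112 against the same experiment and 25 to 90 without a wild type adult, and 311 were lower against the same experiment. In alg-5(tm1163), 15 were higher with an added 50, 24 on deposited RPM, 6 against the same experiment and 12 to 328 without a wild type adult; 47, 40, 9 and 21 to 135 were lower. In alg-5(ram2), 56 were higher and 39 lower with an added 50, and 4 and 22 on deposited RPM. Among these settings only the counts against the same experiment have a share over all kept piRNAs, given above. Of members of at least 10 RPM, 100% were on chromosome IV and 32.2% inside a protein-coding gene; of members called in the other libraries, 100% were on IV.

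On deposited RPM, signs reversed for the stage difference of 21ur-621 (1.43) and for immunoprecipitate over input of 21ur-5107 (-1.20), 21ur-1689 (-1.74), 21ur-621 (-1.74), 21ur-4408 (-1.05), 21ur-3494 (-1.06), 21ur-4659 (-1.02) and 21ur-6546 (-0.89). Deposited RPM differs by the 21U total of each library; the cause of the other changes was not tested. Of 642 stage values of named piRNAs under alternatives, 575 kept sign and call, 60 lost and 6 gained the call. No paired analysis was possible because the small RNA groups share no replicate numbers, other than the pairing of each immunoprecipitate with its own strain's input; with no construct block, 0 members were called. Depth limits members near 1 read, above all in experiment 2 and the GFP::ALG-5 immunoprecipitate.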
